A study of Mus musculus with 2 samples.

Results

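The 10 genes described here are the protein genes of the mouse mitochondrial genome that were taken by name, mt-Nd1, mt-Nd2, mt-Nd3, mt-Nd4, mt-Nd5, mt-Cytb, mt-Co1, mt-Co2, mt-Co3 and mt-Atp6. They are 10 of 32285 genes in the gene list and 10 of the 13 mitochondrially encoded protein genes it holds, the others being mt-Nd4l, mt-Nd6 and mt-Atp8. The data are single-nucleus RNA profiles of hippocampus from mice aged 8 months. All mice carried 5XFAD, human transgenes with familial Alzheimer mutations that are driven by the neuronal Thy1 promoter and lead to amyloid plaques. The first group was 5XFAD, and the other was 5XFAD x MR1 KO, in which the gene for MR1, which shows microbial vitamin B metabolites to MAIT cells, is labelled as knocked out. Each group was 1 library, made from 1 male and 1 female mouse pooled together, and no group without 5XFAD was measured. No test was possible with 1 library per group, the groups cannot be told apart from their libraries, and every interval is a 95% interval for counting error only.

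The mitochondrial genome encodes a small set of proteins, all subunits of the oxidative phosphorylation complexes in the inner mitochondrial membrane, and most subunits of these complexes are encoded in the nucleus. Its genes are transcribed inside mitochondria as long polycistronic RNAs that are processed at the intervening tRNAs, and the mature mRNAs get short poly(A) tails. An isolated nucleus holds no mitochondria, so the share of these RNAs is commonly read as a quality measure in nuclei, and a barcode's share is usually limited by a filter. No such limit was applied here.

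The assay counts RNA near the poly(A) tail in UMIs (unique molecular identifiers, 1 per captured RNA molecule). UMIs of a gene are thus expected to start near the 3′ end of its mRNA. The annotated end of a gene need not be that end. On the + strand, 69 bases lie between mt-Co1 and the next gene, and 579 between mt-Nd5 and the next. Whether the mRNAs of mt-Co1 and mt-Nd5 run past their annotated ends was not tested. The annotated 3′ ends of 6 genes are printed from GENCODE M21 on GRCm38, on the + strand. The stop codon, or the part of it that the genome encodes, is in capitals. The first 3 end in a single encoded base of the stop codon, which polyadenylation completes in the mature mRNA, as is known for these genes. The other 3 have a complete stop codon within their annotated ends, although the last 2 bases of mt-Nd2 also belong to the tRNA gene mt-Tw. They were the genes whose part of the UMIs of the 10 genes differed by the widest ratio between the libraries.
mt-Co3, chrM:9361-9390: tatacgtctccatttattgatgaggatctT
mt-Nd4, chrM:11515-11544: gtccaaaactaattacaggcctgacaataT
mt-Cytb, chrM:15259-15288: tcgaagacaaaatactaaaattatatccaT
mt-Co1, chrM:6843-6872: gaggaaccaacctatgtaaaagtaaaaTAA
mt-Nd3, chrM:9777-9806: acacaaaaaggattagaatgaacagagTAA
mt-Nd2, chrM:4922-4951: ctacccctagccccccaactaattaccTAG

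The 10 genes lie on chrM between mt-Nd1 (from base 2751) and mt-Cytb (to base 15288), all on the + strand, and each is a single exon. Their counts are uncertain where other sequence is nearly identical. A segment of nuclear chromosome 1 (chr1:24611535-24616197, GRCm38) holds pseudogenes that matched 678 bases of mt-Atp6, 681 of mt-Co2, 783 of mt-Co3 and the first 876 of mt-Nd4 at 100% identity. It also matched 345 bases of mt-Nd3 at 99.7% and the last 483 bases of mt-Co1 at 99.8%. These pseudogenes are not in the gene list of the files, and how the counting treated reads that match both places is not given in the sources used here. mt-Atp8 overlaps mt-Atp6 by 43 bases, mt-Nd4l overlaps mt-Nd4 by 7, and mt-Nd6 overlaps the end of mt-Nd5 on the opposite strand, so reads of these neighbours could be split between them.

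Barcodes with at least 500 detected genes were used, 23506 of 25238 in the 5XFAD library against 24411 of 26212 in the library labelled MR1 knockout, with 105852498 and 84675290 UMIs. Their median depth was 3368 and 2640 UMIs. The libraries shared 160 of these barcode sequences. Mr1 RNA went against its label, with 95 UMIs in the 5XFAD library (0.897 CPM, UMIs per 1000000 UMIs, exact Poisson interval 0.726 to 1.10) against 116 UMIs in the library labelled MR1 knockout (1.37 CPM, 1.13 to 1.64). Which part of Mr1 was deleted is not given in the sources used here, so UMIs at its 3′ end may check nothing, and the name "library labelled MR1 knockout" is kept throughout. The libraries also differed in cell make-up: 1762 barcodes of the 5XFAD library and 20 of the other were striatal medium spiny neuron-like. Some clusters of barcodes that took no name were uneven as well, with 92 and 3077 barcodes in cluster 2, led by Otof, and 788 and 48 in cluster 19. Others, such as cluster 4 with 1542 and 1365, were closer. Values over all barcodes include these differences.

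The 10 genes together took a share of 4.37% of all UMIs in the 5XFAD library (exact binomial interval 4.37 to 4.38%) against 1.65% in the library labelled MR1 knockout (1.64 to 1.65%). The ratio of the shares, labelled MR1 knockout over 5XFAD here and throughout, was 0.376 (0.376 to 0.377). They made up 98.9% and 99.1% of the UMIs of all 13 mitochondrial protein genes. All 10 genes had a lower share in the library labelled MR1 knockout, and all 10 were past 1.5-fold, against 3.37% of the 18353 genes with 100 or more UMIs in the libraries together. A ratio below 1 alone was held by 28.3% of those genes, whose median log2 ratio was 0.12, against -1.41 for the 10. Among barcodes with under 5% mitochondrial UMIs, a limit set on the measured quantity itself, the ratio was 0.740 with all 10 genes still lower.

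Complex I, the NADH dehydrogenase through which electrons enter the respiratory chain, has 5 subunits among the 10 genes. mt-Nd4 had the most UMIs of the 5, with 286722 in the 5XFAD library (a share of 0.271%) against 85317 in the library labelled MR1 knockout (0.101%), a ratio of 0.372 (0.369 to 0.375). mt-Nd2 had 254798 and 86470 UMIs (0.241% and 0.102%), and its ratio of 0.424 (0.421 to 0.427) was the highest of the 10 genes. mt-Nd1 had 237975 and 75834 UMIs (0.225% and 0.0896%), with a ratio of 0.398 (0.395 to 0.402). These 3 genes were thus close in level and in ratio. mt-Nd3, the shortest of the 10 genes at 348 bases, had 95336 and 22764 UMIs (0.0901% and 0.0269%), and its ratio of 0.298 (0.294 to 0.303) was the lowest of the 10. mt-Nd5, the longest at 1824 bases, had the fewest UMIs, 54543 and 15320 (0.0515% and 0.0181%), with a ratio of 0.351 (0.345 to 0.357). It was also the gene that most barcodes lacked: 61.3% of barcodes in the 5XFAD library against 36.0% in the library labelled MR1 knockout had a UMI of it. Reads past the annotated end of mt-Nd5, in the 579 bases before the next + strand gene, were not examined.

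mt-Cytb encodes cytochrome b, the only mitochondrially encoded subunit of complex III. It had 478796 UMIs in the 5XFAD library (0.452%) against 154239 in the library labelled MR1 knockout (0.182%), a ratio of 0.403 (0.4004 to 0.405). Complex IV, cytochrome c oxidase, takes its catalytic core from 3 of the 10 genes. mt-Co3 had the most UMIs of all, 1002702 and 323672 (0.947% and 0.382%), with a ratio of 0.404 (0.402 to 0.405), and 99.97% and 98.5% of barcodes had at least 1. mt-Co2, which carries the copper site that takes electrons from cytochrome c, had 698417 and 212246 UMIs (0.660% and 0.251%), with a ratio of 0.380 (0.378 to 0.382). mt-Co1, the subunit where oxygen is reduced, had 668452 and 169957 UMIs (0.632% and 0.201%), with a ratio of 0.318 (0.316 to 0.319). In the cytochrome oxidase genes the ratio of mt-Co1 was thus below that of its neighbours mt-Co2 and mt-Co3.

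mt-Atp6 encodes a subunit of the proton channel of complex V, the ATP synthase. It had 850503 UMIs in the 5XFAD library (0.803%) against 247550 in the library labelled MR1 knockout (0.292%), a ratio of 0.364 (0.362 to 0.365). The other 3 protein genes each had fewer UMIs than any of the 10. mt-Nd4l had 35529 and 8342 UMIs with a ratio of 0.294 (0.287 to 0.301). mt-Nd6, the only protein gene on the other strand, had 9085 and 2527 UMIs with a ratio of 0.348 (0.333 to 0.363). mt-Atp8 had 7390 and 1656 UMIs, with a ratio of 0.280 (0.265 to 0.295).

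**Figure D1:**
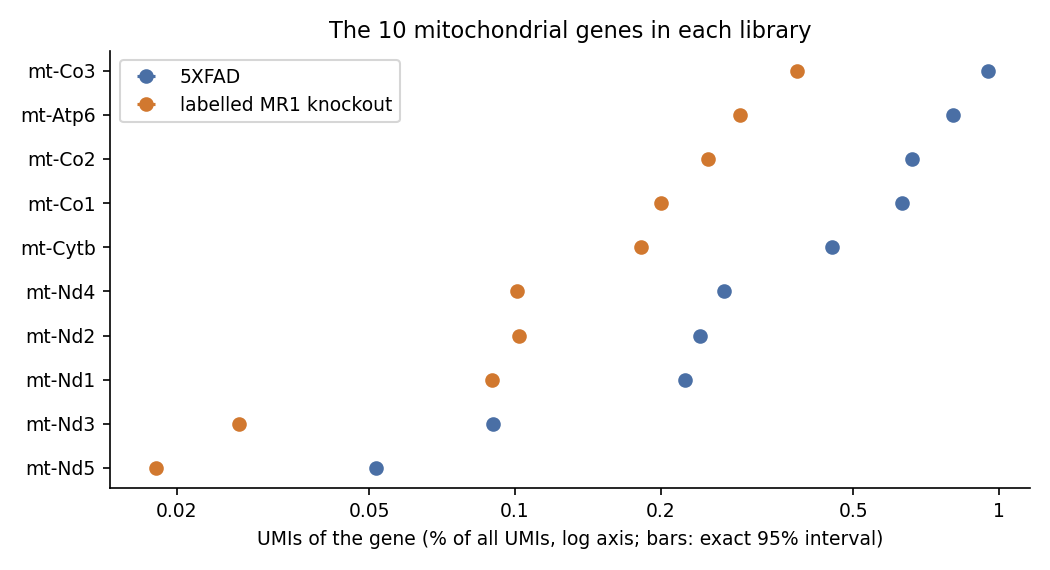
UMIs of each of the 10 genes as a percent of all UMIs (log axis) for the 5XFAD library (blue) against the library labelled MR1 knockout (orange), with exact 95% intervals that lie within the points. Every orange point lies to the left of its blue partner, with ratios from 0.298 (mt-Nd3) to 0.424 (mt-Nd2).

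Per kilobase of gene the order differed from that of the raw UMIs. In CPM per kilobase, mt-Co3 was highest with 12082 in the 5XFAD library against 4876 in the library labelled MR1 knockout. mt-Atp6 followed with 11799 and 4293, and mt-Co2 with 9646 and 3665. mt-Co1 (4087 and 1299) and mt-Cytb (3954 and 1592) came next and changed places between the libraries. mt-Nd1, mt-Nd2, mt-Nd3 and mt-Nd4 lay between 1966 and 2588 in the 5XFAD library against between 731 and 984 in the other, and mt-Nd5 was lowest with 282 and 99.2. The highest gene had 42.8 and 49.2 times the level of the lowest. With 3′ counting the length of a gene need not set its UMIs, so this order depends on the division by length.

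The mix of the 10 genes is each gene's part of their summed UMIs, a measure with no other gene in its denominator. Complex I genes held 20.1% of the UMIs of the 10 genes in the 5XFAD library against 20.5% in the library labelled MR1 knockout. mt-Cytb held 10.3% and 11.1%, the complex IV genes 51.2% and 50.7%, and mt-Atp6 18.4% and 17.8%. The UMIs of the 5 complex I genes over those of the 3 complex IV genes gave 0.392 (0.391 to 0.393) and 0.405 (0.403 to 0.407), so that the second value was 1.03 times the first. By complex, the mix was therefore close to level while the total differed by a ratio of 0.376.

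Within that mix, single genes shifted. mt-Co1 held 14.4% of the UMIs of the 10 genes in the 5XFAD library against 12.2% in the library labelled MR1 knockout, the widest difference in points (2.25). mt-Nd3 held 2.06% and 1.63%, 0.793 times (0.782 to 0.805). mt-Nd2 held 5.51% and 6.21%, 1.13 times (1.12 to 1.14), mt-Cytb was at 1.07 times (1.06 to 1.08) and mt-Co3, with 21.7% and 23.2%, at 1.07 times (1.07 to 1.08). The other 5 genes lay between 0.933 times (mt-Nd5) and 1.06 times (mt-Nd1).

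These shifts were then read within 9 cell classes that were rebuilt by clustering without the mitochondrial genes, so the classes do not use the 10 genes. Each class was named from markers and is only like the cell type of its name (astrocyte-like and so on), and the suffix is dropped from here. All markers of each of the 9 classes were detected in both libraries. In the glial classes at most 1 marker was not highest in its own class. Neuronal names rest on less. In both libraries 8 of 10 markers were highest in their class for CA1 and 7 of 10 for CA2/CA3 pyramidal neurons. The counts were 10 of 14 for inhibitory and 6 of 12 for subicular or cortical excitatory neurons. Dentate granule neurons had 8 of 10 (5XFAD) and 7 of 10. The part that mt-Nd3 held was lower in the library labelled MR1 knockout in 9 of 9 classes, from 0.683 times in astrocytes to 0.834 times in subicular or cortical excitatory neurons, with every interval below 1. mt-Co1 was likewise lower in 9 of 9, from 0.747 times in inhibitory neurons to 0.938 times in astrocytes. mt-Nd2 was higher in 9 of 9, from 1.04 to 1.12 times, again with every interval on 1 side. mt-Cytb was higher in 9 with an interval above 1 in 7, and mt-Co3 was higher in 8.

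**Figure D2:**
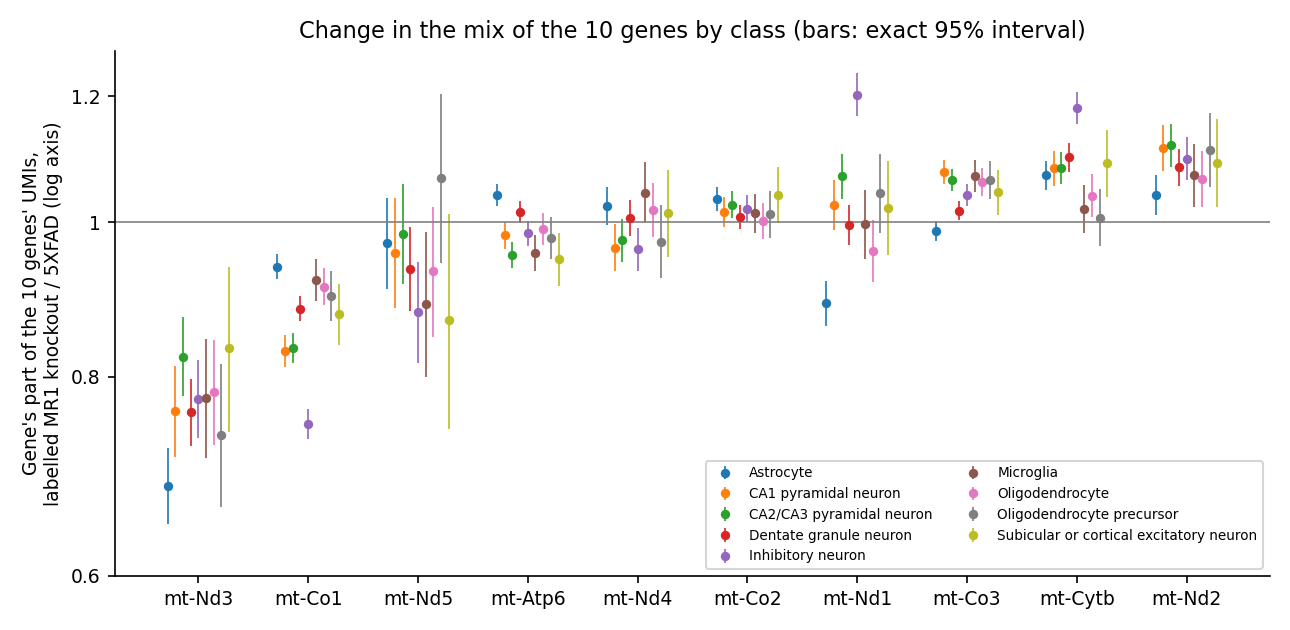
Part of the UMIs of the 10 genes held by each gene, labelled MR1 knockout over 5XFAD (log axis), in each of the 9 compared classes, with exact 95% intervals. All 9 points of mt-Nd3 and of mt-Co1 lie below 1 and all 9 of mt-Nd2 above 1. Among these 9 classes, inhibitory neurons stand apart for mt-Nd1 (1.203 times) and mt-Co1 (0.747 times).

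In the 5XFAD library the mix was nearly the same in all classes. The part held by a gene varied by at most 1.13-fold between the 9 classes (mt-Nd5), and complex I over complex IV UMIs ranged from 0.388 to 0.394. The library labelled MR1 knockout showed a wider spread, with that ratio at 0.376 in astrocytes and 0.428 in inhibitory neurons. mt-Nd1 there held 4.39% in astrocytes and 6.38% in inhibitory neurons, a 1.45-fold spread, against 4.94% and 5.30% in the 5XFAD library. mt-Co1 held 13.7% in astrocytes and 10.4% in inhibitory neurons there, and 14.6% and 13.96% in the 5XFAD library. Among the 9 classes, inhibitory neurons of the library labelled MR1 knockout therefore stood at the edge for both genes, on 7329 UMIs of mt-Nd1 and 11984 of mt-Co1. Unnamed clusters, which are not in these ranges, lay on both sides of inhibitory neurons in complex I over complex IV UMIs. In that library cluster 21 stood at 0.453 and cluster 8 at 0.428, with cluster 29 at 0.377.

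The summed share of the 10 genes differed widely between classes, and glia were above neurons in both libraries. In the 5XFAD library astrocytes had 11.8%, microglia 11.3%, oligodendrocytes 10.0% and oligodendrocyte precursors 5.31%. Among neurons, CA1 pyramidal neurons had 2.95%, dentate granule neurons 2.59%, subicular or cortical excitatory neurons 2.54%, inhibitory neurons 2.54% and CA2/CA3 pyramidal neurons 1.79%. Only the subicular or cortical and the inhibitory neurons had overlapping intervals among neighbours in this order. The order also depended on the clustering. At a coarser Leiden resolution of 0.8 microglia came first with 11.3%, then oligodendrocytes with 10.0% and astrocytes with 8.86%, and dentate granule neurons (3.75%) stood above CA1 pyramidal neurons (2.66%). Without marked doublets, dentate granule neurons (2.56%) likewise stood above CA1 pyramidal neurons (2.36%). Unnamed cluster 29 bears on the dentate value: its leading genes hold the dentate markers Glis3, Prox1 and Stxbp6 beside 5 genes that also lead a cluster of very high mitochondrial share (cluster 13, described further on), and a naming rule on those genes, set after the clusters were seen, kept it out. Its 219 and 33 barcodes had a share of 12.5% in each library, and marked doublets made up 33.8% and 6.06% of them. With it, dentate granule neurons had shares of 3.75% (5XFAD) and 1.84%. The highest class was 6.59-fold above the lowest.

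Under the reported clustering the glial order was the same in the library labelled MR1 knockout, with 8.36% in astrocytes, 4.01% in microglia, 3.64% in oligodendrocytes and 1.92% in oligodendrocyte precursors. The neuronal order changed: dentate granule neurons had 1.73%, inhibitory neurons 1.498%, subicular or cortical excitatory neurons 1.23%, CA1 pyramidal neurons 1.17% and CA2/CA3 pyramidal neurons 0.886%. No neighbours overlapped in their intervals, and the highest class was 9.43-fold above the lowest.

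All 9 classes had a lower share in the library labelled MR1 knockout. Summed over the 9 classes the ratio was 0.464 (0.463 to 0.466), against 0.376 over all barcodes. The ratio was 0.353 (0.349 to 0.357) in microglia, 0.361 (0.357 to 0.366) in oligodendrocyte precursors and 0.364 (0.361 to 0.368) in oligodendrocytes. It was 0.396 (0.392 to 0.399) in CA1 pyramidal neurons, 0.483 (0.475 to 0.491) in subicular or cortical excitatory neurons and 0.495 (0.491 to 0.499) in CA2/CA3 pyramidal neurons. The ratio came closest to 1 in inhibitory neurons with 0.589 (0.585 to 0.594), dentate granule neurons with 0.670 (0.666 to 0.674) and astrocytes with 0.708 (0.703 to 0.713). The value of dentate granule neurons rests on the naming rule: with cluster 29 their ratio was 0.490 (0.487 to 0.493). At a resolution of 0.8 it was 0.494, and that of subicular or cortical excitatory neurons was 0.607. Under the limit of 5% mitochondrial UMIs the order changed as well, with the lowest ratio in CA2/CA3 pyramidal neurons (0.5996). There microglia stood at 0.706, oligodendrocytes at 0.715, oligodendrocyte precursors at 0.709, CA1 pyramidal neurons at 0.652 and astrocytes at 0.973.

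Gene by gene, 90 of 90 values (10 genes in 9 classes) were lower, with ratios between 0.266 and 0.758. Among all genes measured in a class, a ratio below 1 was held by 41.7% in astrocytes, 31.3% in microglia, 28.7% in oligodendrocytes and 36.5% in oligodendrocyte precursors. It was held by 31.4% in CA1 pyramidal neurons, 31.0% in CA2/CA3 pyramidal neurons, 32.4% in dentate granule neurons, 32.0% in inhibitory neurons and 36.5% in subicular or cortical excitatory neurons. Past 1.5-fold, all 10 genes were lower in CA1 pyramidal neurons (1.44% of all genes), CA2/CA3 pyramidal neurons (0.979%), microglia (2.81%), oligodendrocytes (2.65%), oligodendrocyte precursors (2.28%) and subicular or cortical excitatory neurons (2.43%). In inhibitory neurons 8 of 10 were (1.21%). Only 3 of 10 passed that fold in astrocytes (2.63%) and 3 of 10 in dentate granule neurons (3.45%), where all 10 passed it with cluster 29 added (3.4%). mt-Nd3 had the lowest ratio of the 10 in 8 of the 9 classes, and mt-Co1 had it in inhibitory neurons (0.440).

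**Figure D3:**
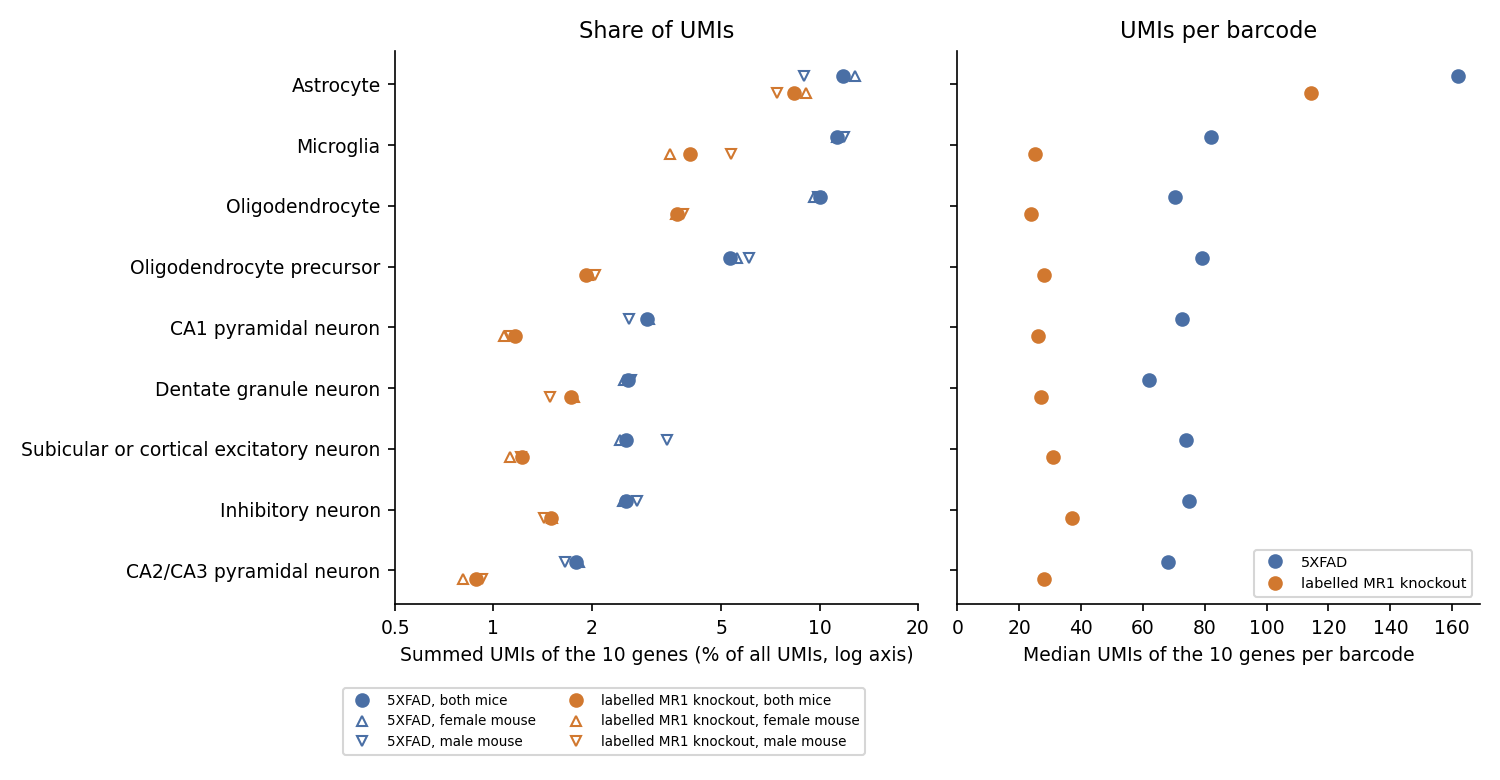
Left, summed UMIs of the 10 genes as a percent of all UMIs (log axis) by class in the 5XFAD library (blue) against the library labelled MR1 knockout (orange), for all barcodes (filled) and for those of the female and the male mouse (open triangles). Right, median UMIs of the 10 genes per barcode, which were 62 to 82 in the 5XFAD library against 24 to 37 in the other for 8 classes, with astrocytes above at 162 and 114.5.

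The classes differed far less in UMIs of the 10 genes per barcode than in their share. In the 5XFAD library the median was 62 in dentate granule neurons, 68 in CA2/CA3 pyramidal neurons, 70.5 in oligodendrocytes, 72.5 in CA1 pyramidal neurons, 74 in subicular or cortical excitatory neurons, 75 in inhibitory neurons, 79 in oligodendrocyte precursors and 82 in microglia. In the other library those 8 classes lay between 24 (oligodendrocytes) and 37 (inhibitory neurons). Over the same classes, the median of all UMIs ran from 1363 in microglia to 6087 in CA2/CA3 pyramidal neurons in the 5XFAD library, and from 912.5 to 4248 in the other. Astrocytes were the exception, with medians of 162 and 114.5 UMIs of the 10 genes at median depths of 2180 and 1762.5 UMIs. The part that free RNA in the suspension had in these counts was not tested.

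A like pattern was seen over depth. From barcodes with under 1000 UMIs outside the mitochondrial genes to those with at least 16000, the median of UMIs of the 10 genes went from 41 to 140 in the 5XFAD library against from 21 to 85 in the library labelled MR1 knockout. The median share went from 5.53% to 0.660% and from 2.69% to 0.411%. In every depth range the library labelled MR1 knockout was lower in both measures. Summed over all barcodes, the 10 genes gave a mean of 197 and 57.1 UMIs per barcode, a ratio of 0.290, while the UMIs outside the mitochondrial genes gave 4304 and 3411.

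**Figure D4:**
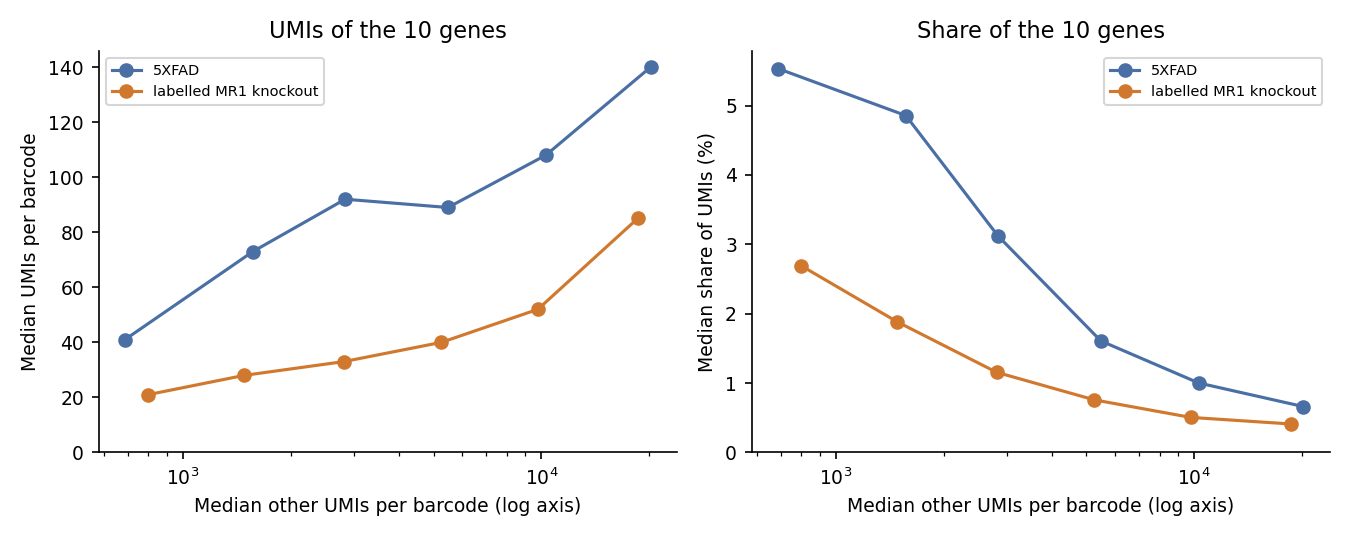
Median UMIs of the 10 genes per barcode (left) and median share of UMIs in percent (right) in 6 ranges of UMIs outside the mitochondrial genes, plotted at the median of each range (log axis). The median UMIs went from 41 to 140 in the 5XFAD library (blue) against from 21 to 85 in the library labelled MR1 knockout (orange), while the median share went from 5.53% to 0.660% and from 2.69% to 0.411%.

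Barcodes varied most at the upper end. The median share per barcode was 3.09% in the 5XFAD library against 1.30% in the library labelled MR1 knockout, the lowest 5% of barcodes were under 0.529% and 0.260%, and the highest 5% were over 25.5% and 6.77%. A share of at least 20% was held by 1616 barcodes (6.87%) and 156 barcodes (0.639%). Of these, 73.6% and 62.2% belonged to a single unnamed cluster, cluster 13, led by Ndrg2, Ddn, Aldoc, Glul and Gstm1. Ndrg2, Aldoc and Glul are astrocyte genes, and Ddn encodes dendrin, a protein of neuronal dendrites whose RNA is known to lie in dendrites. Of the markers used to name astrocytes, however, only 1 was among the top 50 genes of cluster 13 and 0 among its top 10, so the cluster is not called astrocyte-like.

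Cluster 13 had 1281 barcodes in the 5XFAD library against 116 in the library labelled MR1 knockout, 5.45% and 0.475% of all. Its share was 29.9% and 24.9%, a ratio of 0.833 (0.827 to 0.840), and it gave 27.5% and 4.47% of all UMIs of the 10 genes. Its median UMI count was 3161 and 2014.5. Cytosolic ribosomal protein genes took 11.3% and 8.69% of its UMIs outside the mitochondrial genes, against 1.81% and 1.14% over all barcodes. By sex-linked RNA, 89.2% and 88.8% of its barcodes could be given to neither mouse, against 27.7% and 36.3% in the compared classes. Without cluster 13, an alternative added after seeing the data, the ratio of the summed share over all barcodes was 0.478, and all 10 genes were still lower.

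The mix of the 10 genes also moved with a barcode's own share. From barcodes with a share under 1% to those with at least 20%, the part held by mt-Co3 went from 24.4% to 20.3% in the 5XFAD library against from 24.4% to 20.4% in the library labelled MR1 knockout. mt-Atp6 went from 16.9% to 19.1% and from 16.9% to 19.2%, and mt-Nd2 from 6.09% to 5.22% and from 6.41% to 5.71%. At either end, mt-Co3 and mt-Atp6 thus held nearly the same part in both libraries. mt-Co1 went up over the 6 ranges in the 5XFAD library, while in the other it first went down, to 11.7% between shares of 2% and 5%. It was lower in the library labelled MR1 knockout at both ends (13.6% and 12.2% at the lowest shares, 14.8% and 13.6% at the highest), as was mt-Nd3 (2.22% and 1.69%, then 2.002% and 1.53%). Over the same ranges, cytosolic ribosomal protein genes went from 0.623% to 10.5% and from 0.795% to 7.82% of the UMIs outside the mitochondrial genes, and their part in the result was not tested.

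**Figure D5:**
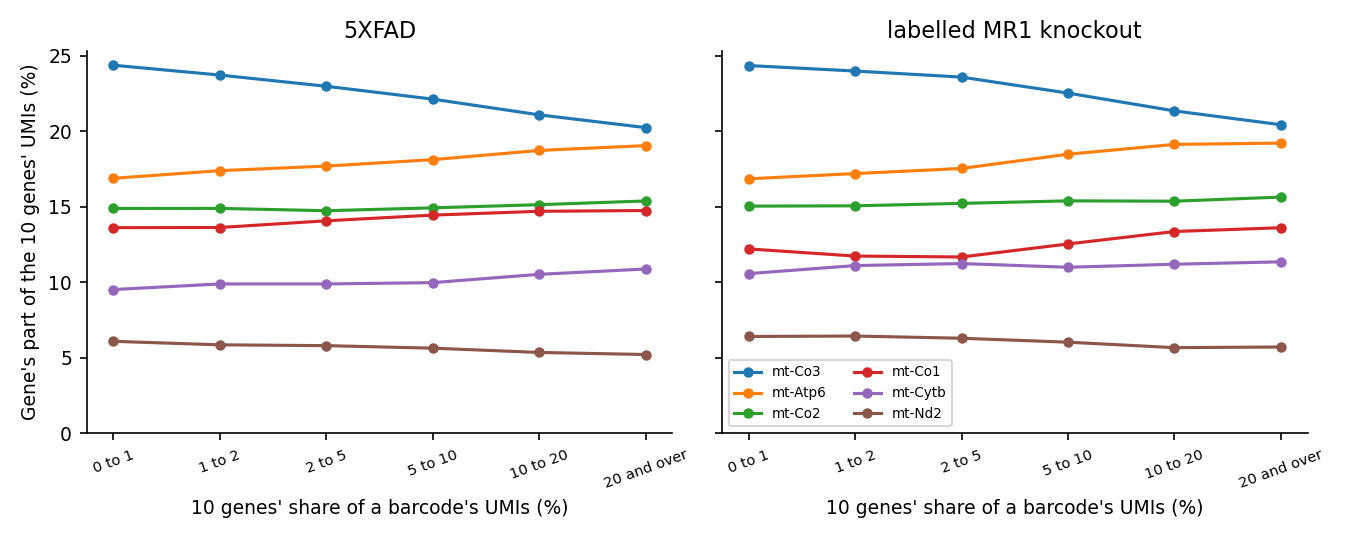
Part of the UMIs of the 10 genes (percent) held by 6 of them in barcodes grouped by their own share of mitochondrial UMIs, in the 5XFAD library (left) against the library labelled MR1 knockout (right). The curve of mt-Co3 falls from 24.4% to 20.3% and 20.4% and that of mt-Atp6 climbs from 16.9% to 19.1% and 19.2%, while mt-Co1 lies lower at every share in the right panel.

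Sex-linked RNA told the pooled mice apart in part of the barcodes, 8755 female and 5497 male in the 5XFAD library against 12572 and 3931 in the library labelled MR1 knockout. Female and male barcodes of the 5XFAD library had a summed share of 3.25% and 3.39%. Those of the other library had 1.53% and 1.44%. All 4 values lay below the share over all barcodes of their library (4.37% and 1.65%). The 9254 (5XFAD) and 7908 barcodes given to neither mouse therefore had a higher share and are left out of this comparison. The ratio was 0.472 (0.471 to 0.474) in female and 0.426 (0.424 to 0.428) in male barcodes, against 0.376 over all barcodes. Each of the 9 classes had a ratio below 1 in both sexes. It ranged from 0.307 (female microglia) to 0.823 (male astrocytes). Mice within a library shared 1 capture and are not replicates of a genotype.

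Smaller classes were not compared but had values on the same side. Ependymal cells, which carry many motile cilia, had the highest share of any named class, 16.9% of UMIs in 24 barcodes of the 5XFAD library and 10.1% in 21 barcodes of the library labelled MR1 knockout. Mural cells had 9.34% and 3.04%, endothelial cells 7.28% and 4.05%, vascular leptomeningeal cells 6.70% and 3.03%, Cajal-Retzius cells 5.68% and 2.10%, and committed oligodendrocyte precursors 4.29% and 1.80%. T lymphocytes, among which MAIT cells would fall, had 9.81% in 16 barcodes and 4.89% in 35 barcodes. Marked doublets were uneven in 2 of these small classes. They made up 0% (5XFAD) and 66.7% of ependymal barcodes, and 62.5% (5XFAD) and 14.3% of T lymphocyte barcodes.

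Nuclear genes for subunits of the same complexes were also mostly lower in the library labelled MR1 knockout, by less. Of the complex I list, 33 of 36 measured genes had a ratio below 1 (against 28.3% of all genes), with a median log2 ratio of -0.15, and 1 was past 1.5-fold. Its most abundant members were Ndufa13 (287.9 and 232.9 CPM), Ndufb9 (232.3 and 170.3) and Ndufc2 (195.2 and 194.1), a level pair. In complex II, the only one with no mitochondrially encoded subunit, 3 of 4 were lower with a median of -0.06, and Sdha, its flavoprotein, had a ratio of 0.927 (0.899 to 0.956).

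Complexes III to V followed. Over all genes, 28.3% were lower and 3.37% lower past 1.5-fold. In complex III 8 of 9 were lower and 1 was past 1.5-fold, with a median log2 ratio of -0.26, including the hinge protein gene Uqcrh at 0.689 (0.675 to 0.704). Complex IV stood lowest, with 10 of 10 lower, a median of -0.46 and 4 past 1.5-fold. Cox8a had 786.6 and 491.1 CPM (0.624, 0.617 to 0.632), Cox4i1 721.8 and 523.5, and Cox6c 587.0 and 357.7 (0.609, 0.601 to 0.618). Of the complex V list, 14 of 16 were lower with a median of -0.17, and Atp5h stood at 0.881 (0.866 to 0.898) and Atp5md at 0.673 (0.661 to 0.686). No nuclear list of these complexes reached the median log2 ratio of -1.41 of the 10 mitochondrial genes.

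Genes that copy, transcribe and process the mitochondrial genome did not follow the 10 genes. Of 24 such genes, 5 had a ratio below 1 and 19 above, with a median log2 ratio of 0.11, close to the 0.12 of all genes. Pnpt1, a nuclease of mitochondrial RNA, had a ratio of 1.08 (1.04 to 1.12), Lrpprc, which stabilises mitochondrial mRNAs, 1.08 (1.04 to 1.13), and Ssbp1, which binds single-stranded mitochondrial DNA, 1.05 (1.00 to 1.09). Cytosolic ribosomal protein genes were lower in 46 of 46 (28.3% of all genes), with a median of -0.55 and 18 past 1.5-fold (3.37% of all genes), and Rplp1 had 925.1 and 498.3 CPM. Against the same 28.3%, nuclear long noncoding RNAs were lower in 1 of 8 with a median of 0.14, with Malat1 at 1.04 (1.04 to 1.04). Erythroid globin genes, which mark blood, were lower in 0 of 4 with a median of 0.26. Immediate-early genes, which neuronal activity induces, were lower in 8 of 10 with a median of -0.36, although Jun stood at 1.87 (1.77 to 1.98). Their part in the result for the mitochondrial genes was not tested.

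Dentate granule neurons differed from this pattern in the nuclear genes. All nuclear oxidative phosphorylation genes of the lists together took 1.15% of the UMIs outside the mitochondrial genes in the 5XFAD library against 1.35% in the library labelled MR1 knockout in this class, and ribosomal protein genes 1.49% and 1.64%. With cluster 29 added, the oxidative phosphorylation sum kept its direction (1.27% and 1.36%), and the ribosomal sum turned (1.78% and 1.66%). In the other 8 classes both sums were lower in the library labelled MR1 knockout, for example 2.87% and 2.10% for the oxidative phosphorylation genes in astrocytes. The 10 mitochondrial genes were lower in dentate granule neurons as well, at 2.59% and 1.73%.

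Across the 18 points given by 9 classes in 2 libraries, the 6 nuclear genes whose CPM over the UMIs outside the mitochondrial genes was most like that of the 10 genes were taken from the 9737 genes with at least 1000 UMIs in each library. S100b, a calcium-binding protein of astrocytes, came first with a Pearson r of 0.982 on the log2 scale (pseudocount of 1 CPM for the nuclear genes). It was followed by Gm10076 (0.981) and the ribosomal protein genes Rps29 (0.972), Rpsa (0.970), Rps21 (0.970) and Rpl41 (0.970). The points share libraries and differ in depth, so these values only describe the pattern. S100b was also among the top 10 genes of clusters 13 and 29. It was 1 of the genes in the naming rule that kept cluster 29 out of the classes, so its rank is not independent of how the classes were made. Over all barcodes these 6 genes had ratios from 0.411 (Rps29) to 0.516 (Rpsa), with S100b at 0.417 (0.399 to 0.436) on 8087 and 2700 UMIs. Points of both libraries were used to choose the 6 genes, so low ratios were favoured in advance.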

How the data were processed

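Nuclei of flash-frozen hippocampus were profiled by 3′ droplet sequencing (about 20 mg of tissue and a target of 10000 nuclei per library, reads of 28 and 91 bp), per the labels' protocols. The deposited files hold raw counts, whole UMI counts per gene and barcode that the authors made with Cell Ranger 7.0.0, per the file headers. The submitters' processing notes name mm10 and Seurat. For the annotation release, strand setting and intron counting, nothing is given in the sources used here.

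Barcodes with at least 500 genes were kept, without a mitochondrial limit. Both libraries were clustered together in scanpy 1.11.5 (2500 variable genes without mitochondrial and sex-linked genes, 40 principal components, 20 neighbours, Leiden resolution 1.5). Of 42 clusters, 22 took 17 names, each from at least 3 class markers among its top 50 genes. Further rules were set after the clusters were seen: at least 1 marker among the top 10 genes, no name where 3 or more genes that lead cluster 13, the cluster with the highest mitochondrial share, were among the top 10 (this changed the name of cluster 29 alone), and no name where at least 15% of barcodes held both Xist and Y-linked UMIs. The classes with at least 200 barcodes in each library were compared. They hold 47.2% and 58.8% of the barcodes, and rebuilt names can differ from the study's. Barcodes were called female from 2 or more UMIs of Xist without any Y-linked UMI, and male from 1 or more Y-linked UMIs without Xist. Scrublet doublets, marked at the expected share of 0.8% per 1000 barcodes (19.2% and 19.6%; the automatic threshold marked 5.02% and 10.3%), were left in and removed as an alternative. The choice of threshold followed a look at the automatic one.

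UMIs were summed per library and class. Shares carry exact binomial (Clopper-Pearson) intervals and ratios exact conditional binomial intervals. Median log2 ratios used a prior count of 0.5, except that of the 10 genes, which used none. PCR and capture add error that these intervals leave out. The calculation of ratios and intervals was run on simulated Poisson counts per gene, the kind of error that the intervals assume. The simulation had no barcodes, classes or spread between libraries, so it checks the arithmetic only. Named genes were the 10 members, the other 3 mitochondrial protein genes, the 6 most alike and up to 3 per list by UMIs; the leading genes of cluster 13 were named outside that rule, after their values were seen. Members and lists were chosen with earlier results of these data known. Nuclear copies were sought with blastn 2.17.0 among GENCODE M21 transcripts. Of the complex V list, 16 of 17 symbols were in the files.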

Additional observations from a re-analysis of the deposited data

How the results depend on the processing

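With 1 library per group, a spread between mice or captures could not be measured. Thinning each barcode to 750 UMIs moved 21 results and left 4 the same. It also left out shallower barcodes and gave every kept barcode the same weight in the sums, so the part of depth alone was not tested. No paired analysis was possible because each group has 1 library. In every alternative that gave a value, all 10 genes and all 9 classes kept a lower share in the library labelled MR1 knockout, the 110 ratios of single genes lay between 0.230 and 0.830 and the 117 ratios of single classes between 0.227 and 0.973. The ratio of the summed share (0.376) was 0.740 under 5% mitochondrial UMIs, 0.350 at 1000 or more genes, 0.379 over every deposited barcode, 0.371 with each barcode thinned to 750 UMIs (1613 and 882 shallower barcodes left out), 0.472 in female and 0.426 in male barcodes, 0.366 per UMI outside the mitochondrial genes, 0.290 in UMIs per barcode, 0.422 as a ratio of medians over barcodes and, an alternative added after seeing the data, 0.478 without cluster 13. Leaving out barcode sequences found in both libraries, also added after seeing the data, and leaving out marked doublets kept the ratio of the summed share within its counting interval. Without marked doublets the ratio of every class rose. It was then 0.472 in CA1 pyramidal neurons, 0.575 in subicular or cortical excitatory neurons and 0.670 in inhibitory neurons.

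The highest over the lowest class share (6.59 for 5XFAD, 9.43 for the other library) was 2.38 and 3.51 under 5% mitochondrial UMIs, 7.27 and 9.99 at 1000 or more genes, 7.65 and 10.4 without marked doublets, 4.87 and 7.34 after thinning, 7.004 and 11.3 in female and 7.18 and 7.99 in male barcodes, 7.35 and 10.2 per UMI outside the mitochondrial genes, 3.18 and 4.77 in UMIs per barcode, 6.32 and 9.66 for medians over barcodes, and 6.23 and 7.35 at a Leiden resolution of 0.8. Complex I over complex IV, 1.03 between the libraries, was 1.04 at 1000 or more genes, 1.02 after thinning and 1.05 in male barcodes. Classes could not be given for every deposited barcode, since barcodes under 500 genes were not clustered. Naming clusters without the rule on the genes of cluster 13, an alternative added after seeing the data, moved only dentate granule neurons, from 0.670 to 0.490. The limit on mitochondrial UMIs cuts on the measured quantity, and the causes were not tested.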
